A study of Gallus gallus with 4 samples.

Results

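CR1-C, CR1-C2, CR1-C3 and CR1-C4 are 4 subfamilies of chicken repeat 1 (CR1), the long interspersed nuclear element (LINE) that dominates the retrotransposons of bird genomes. They were taken by their exact names from the table of transposable element (TE) families, in which they make up 4 of 241 rows and 4 of 24689 rows over all tables of the series. All 4 had reads in every library and passed the filter on low counts. Small RNA had been isolated from the cranial midbrain region of chick embryos (Gallus gallus, wild type, stage HH9-, grown for about 30 h at 37 °C) and size-selected to 19 to 38 nucleotides. The material of each sample was divided into a portion treated with sodium periodate, called oxidized here, and a portion left without oxidation, called total. There were 2 oxidized and 2 total libraries. The labels do not state whether the replicates are separate embryo collections, so every p-value here reflects only how these libraries scatter, which may be technical. The tables pair no gene names with marker genes, so the dissected region was not checked against markers.

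CR1 elements are non-LTR retrotransposons: a complete copy encodes a protein with endonuclease and reverse transcriptase activity and spreads by copying its RNA into DNA at a new site, while most genomic copies are truncated at the 5′ end. Animals hold such elements in check with PIWI-interacting RNAs (piRNAs), small RNAs bound by PIWI proteins that recognise transposon transcripts by base pairing. piRNAs antisense to an element can pair with its transcript, and sense piRNAs arise when such transcripts are cut. A piRNA carries a 2′-O-methyl group on its last ribose, which protects it from periodate, whereas an unmethylated small RNA such as a typical vertebrate miRNA is damaged and lost from the library. The comparison asks how strongly the small RNAs of each CR1-C subfamily withstand oxidation and from which strand they come.

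Depth, as the summed unstranded count over the 6 tables of a library, ran from 10981001 to 17962725 reads. Levels are given as counts per 1000000 assigned reads (CPM), which makes a fold change a change in the share of the library. miRNA reads filled 75.6% and 68.2% of the total libraries and 1.56% and 1.62% of the oxidized libraries, so any RNA that withstands oxidation gains share when they are lost. The files give no element lengths, so read numbers of different subfamilies are compared as reads and not as levels per length. Near-identical copies share reads, and how the counting divided such reads between subfamilies was not given in the sources used here. In bulk tissue, fewer cells with these RNAs and less RNA per cell cannot be told apart.

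The 4 subfamilies together took 6.25% ± 0.138 of the oxidized libraries and 0.106% ± 0.0184 of the total libraries (SD, n = 2 each). In CPM they summed to 63455 and 61498 after oxidation, against 926 and 1186 in total libraries. The groups did not overlap, and the mean was 59.2-fold higher after oxidation. With miRNA reads left out of the library size it was 16.9-fold higher, at 64463 and 62512 CPM after oxidation, against 3797 and 3724 CPM in total libraries. Of all CR1 reads the 4 rows held 19.2% ± 0.233 after oxidation, beside 17.9% ± 0.658 before it, and of all TE reads 13.2% ± 0.177 and 11.2% ± 0.735. An exact two-sided permutation test of 2 libraries against 2 cannot go below p = 0.33, and each of these 3 shares and the summed CPM gave that value.

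CR1-C, the row with the most reads of the 4, stood at 33331 and 28635 CPM in the oxidized libraries, compared with 556 and 691 CPM in the total ones. It ranked 5 of 241 TE rows by mean CPM in both groups. CR1-C3 stood at 19453 and 23186 CPM after oxidation, against 148 and 218 CPM in total libraries. CR1-C2 had 7346 and 6440 CPM in the oxidized libraries, compared with 110 and 142 CPM in the total ones. CR1-C4 had 3325 and 3237 CPM after oxidation, against 112 and 135 CPM in total libraries. In the oxidized libraries the order by reads was CR1-C, CR1-C3, CR1-C2 and CR1-C4, and no neighbours in it overlapped. In the total libraries CR1-C2 and CR1-C4 overlapped, and CR1-C3 lay above both in each library. CR1-C4 thus had about as many reads as CR1-C2 before oxidation and fewer after it, at 0.453 and 0.503 CR1-C4 reads per CR1-C2 read in the oxidized libraries, compared with 1.02 and 0.954 in the total ones.

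**Figure D1:**
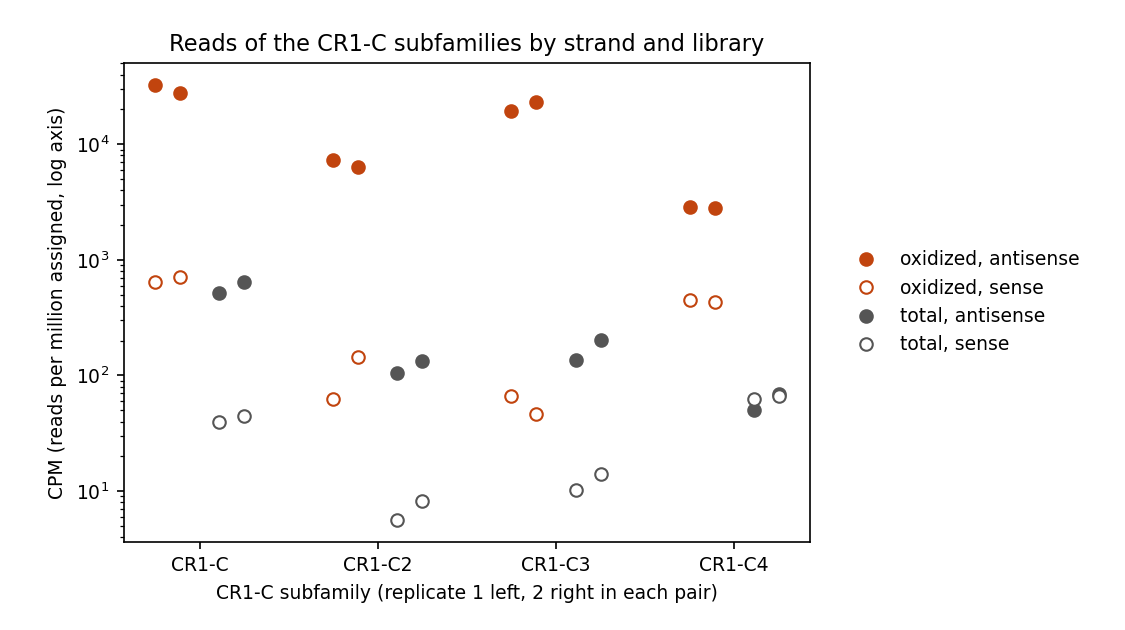
CPM (log axis) of each CR1-C subfamily in each of the 4 libraries, with oxidized libraries in orange left of total libraries in grey, antisense reads as filled points and sense reads as open points. Antisense reads of CR1-C3 lie at 19386 and 23139 CPM after oxidation, against 137 and 204 CPM in total libraries, and CR1-C4 is the row whose sense and antisense reads lie together in the total libraries.

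All 4 subfamilies rose after oxidation relative to all assigned reads. CR1-C3 had the highest fold change, 117-fold by mean CPM (log2 fold change 6.87, SE 0.33, edgeR quasi-likelihood test, adjusted p = 0.0017). Next was CR1-C2, 54.8-fold higher (log2 fold change 5.78, SE 0.25, edgeR adjusted p = 0.0017), and then CR1-C, 49.7-fold higher (log2 fold change 5.64, SE 0.22, edgeR adjusted p = 0.0014). The lowest fold change was that of CR1-C4, 26.5-fold higher (log2 fold change 4.73, SE 0.22, edgeR adjusted p = 0.0017). Among all tested TE rows 67.6% (71 of 105) were called higher, so 4 of 4 is what most TE rows did and is not a result about these rows. Their median log2 fold change was 5.71, beside 4.05 over all tested TE rows. By log2 fold change CR1-C3 ranked 1, CR1-C2 20, CR1-C 27 and CR1-C4 47 of 105. The TE rows GGLTR7B (6.82, SE 0.46) and CR1-F (6.70, SE 0.22) lay within the SE of CR1-C3, so rank 1 does not set it apart from them. With miRNA reads left out of the library size all 4 were still called higher, with lower log2 fold changes of 5.07 for CR1-C3, 3.97 for CR1-C2, 3.82 for CR1-C and 2.91 for CR1-C4. On that scale 56 TE rows were called higher, beside 71 in the main fit. The low-count filter was rerun there and the number of TE rows tested was not counted, so no share is given. These calls too are not read as a result about these rows.

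Taking same-numbered libraries as portions of 1 sample, CR1-C3 was 132-fold and 106-fold higher in oxidized than in total RNA, CR1-C2 66.9-fold and 45.5-fold, CR1-C 59.9-fold and 41.5-fold, and CR1-C4 29.6-fold and 23.9-fold. The order CR1-C3, CR1-C2, CR1-C, CR1-C4 was thus the same in both pairs. Relative to TE reads alone, that is with the TE table as library size, CR1-C3 was still higher after oxidation (log2 fold change 1.23, SE 0.33, edgeR adjusted p = 0.023) and was 1 of 2 TE rows so called, 1.72% of 116 tested. The other one was CR1-F. On that scale CR1-C (log2 fold change -0.017, SE 0.27), CR1-C2 (0.13, SE 0.32) and CR1-C4 (-0.92, SE 0.32, edgeR adjusted p = 0.054) did not pass. The sign of CR1-C4 thus turned with the scaling. The TE scale weights rows by their reads. In the main fit CR1-C4, at 4.73, lay above the median of all tested TE rows, 4.05. On the TE scale the values of CR1-C (negative) and CR1-C2 were smaller in size than their SE, so no direction is read from them.

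**Figure D2:**
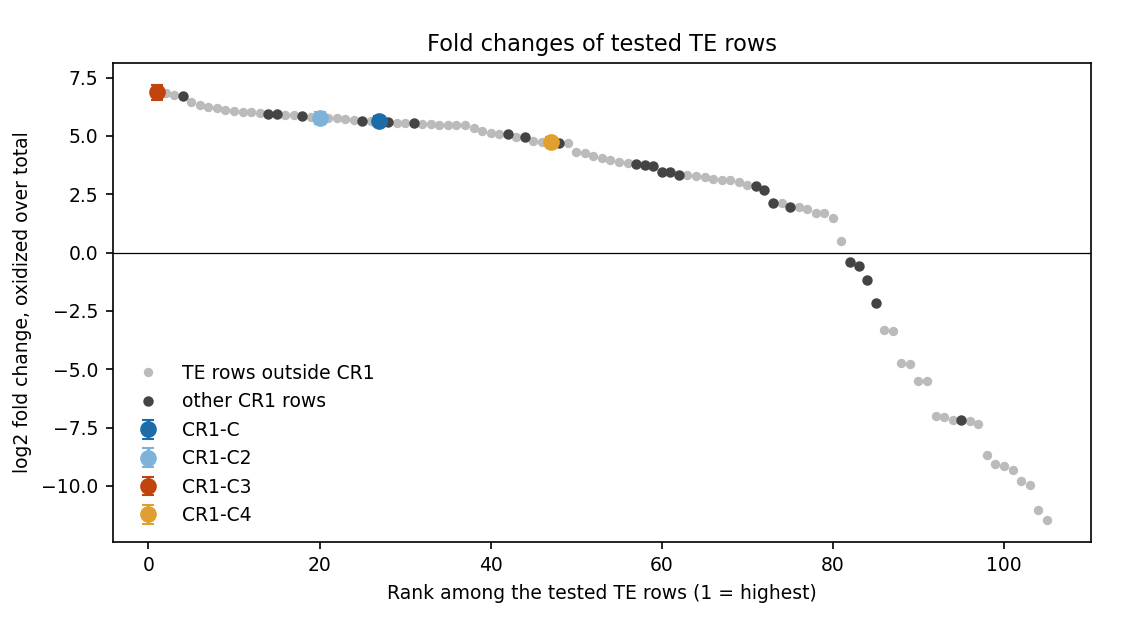
Log2 fold change (oxidized over total, share of assigned reads) of the 105 tested TE rows in order of rank, with the CR1-C subfamilies in colour, their standard error as bars, other CR1 rows in dark grey and the remaining TE rows in light grey. CR1-C3 holds rank 1 at 6.87, with GGLTR7B (6.82) and CR1-F (6.70) within its standard error. CR1-C4 holds rank 47 at 4.73. With the TE table as library size the values for CR1-C (-0.017, SE 0.27) and CR1-C4 (-0.92, SE 0.32) fall below 0. In the ranks shown CR1-C4 lies above the median of all tested TE rows, 4.05.

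The oxidation ratios of the subfamilies were then compared in pairs by taking the reads of one as the library size of the other, which needs no scaling to the rest of the library. CR1-C3 had 0.584 and 0.810 reads per CR1-C read in the oxidized libraries, compared with 0.265 and 0.316 in the total ones, a log2 difference of 1.26 (SE 0.34, edgeR adjusted p = 0.032). Per CR1-C2 read there were 2.65 and 3.60 CR1-C3 reads after oxidation, against 1.34 and 1.54 in total libraries, a log2 difference of 1.11 (SE 0.34, edgeR adjusted p = 0.044). CR1-C4 had 0.171 and 0.140 reads per CR1-C3 read in the oxidized libraries, compared with 0.762 and 0.619 in the total ones, a log2 difference of -2.15 (SE 0.55, edgeR adjusted p = 0.014). In these fits 2.88%, 1.92% and 0% of TE rows were called higher relative to CR1-C, CR1-C2 and CR1-C3, and 39.4%, 40.4% and 54.8% were called lower. CR1-C4 did not pass against CR1-C (log2 difference -0.90, SE 0.33, edgeR adjusted p = 0.072) or CR1-C2 (-1.05, SE 0.34, edgeR adjusted p = 0.054), and CR1-C2 against CR1-C differed by 0.15 (SE 0.31, edgeR adjusted p = 0.68).

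These pair calls were not firm. Adjusted over the 6 pairs instead of over all features, the edgeR p-values were 0.061 for the 3 pairs called and for CR1-C4 against CR1-C2, 0.067 for CR1-C4 against CR1-C and 0.66 for CR1-C2 against CR1-C. The 3 calls were lost with the replicate number as a block (edgeR adjusted p = 0.11 for CR1-C3 against CR1-C, 0.10 against CR1-C2 and 0.071 for CR1-C4 against CR1-C3), and without total replicate 1 (0.27, 0.28 and 0.16) or total replicate 2 (0.22, 0.25 and 0.13), and CR1-C3 against CR1-C2 also without oxidized replicate 2 (0.087). Without oxidized replicate 2, on the other hand, CR1-C4 passed against CR1-C (log2 difference -0.996) and CR1-C2 (-1.13). That fit has 1 oxidized library, which is given the total libraries' spread. In all 6 pairs, called or not, the 2 oxidized libraries lay on 1 side of the 2 total libraries, so this separation does not mark the calls. The exact permutation p for it is 0.33, its smallest.

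The reverse-strand counts were read as antisense to the element, because at most 0.00257% of tRNA reads, whose strand is known, fell there in any library. Antisense reads made up nearly all CR1-C, CR1-C2 and CR1-C3 reads in every library, but not of CR1-C4. CR1-C3 was 99.7% and 99.8% antisense after oxidation, against 93.1% and 93.6% in total libraries. CR1-C2 was 99.2% and 97.8% antisense in the oxidized libraries, compared with 94.9% and 94.1% in the total ones. CR1-C was 98.1% and 97.5% antisense after oxidation, against 92.8% and 93.6% in total libraries. CR1-C4 was 86.4% and 86.7% antisense in the oxidized libraries, compared with 44.4% and 50.7% in the total ones. Among TE rows with a mean of at least 20 reads, the mean share of CR1-C4 ranked 52 of 94 after oxidation and 66 of 99 in total libraries. Many TE rows thus had a lower antisense share than CR1-C4. For each subfamily the oxidized libraries lay above the total libraries. All TE rows summed were 96.3% and 95.5% antisense after oxidation, against 75.8% and 80.1% in total libraries, so a rise is not particular to these rows. The number of TE rows that separated in this way was not counted.

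Counted as reads, these shares had narrow intervals. The exact 95% binomial interval for CR1-C4 was 86.0 to 86.7% in the first oxidized library and 42.2 to 46.6% in the first total library. Such intervals leave out the spread between libraries. They also understate counting error where reads are PCR copies, which are not independent molecules. With an estimate of 122 and 130.5 reads per molecule in oxidized replicates 1 and 2, made from gene rows seen in only 1 of these libraries, CR1-C4 had about 299 and 349 molecules there and the interval in oxidized replicate 1 was 81.9 to 90.0%.

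**Figure D3:**
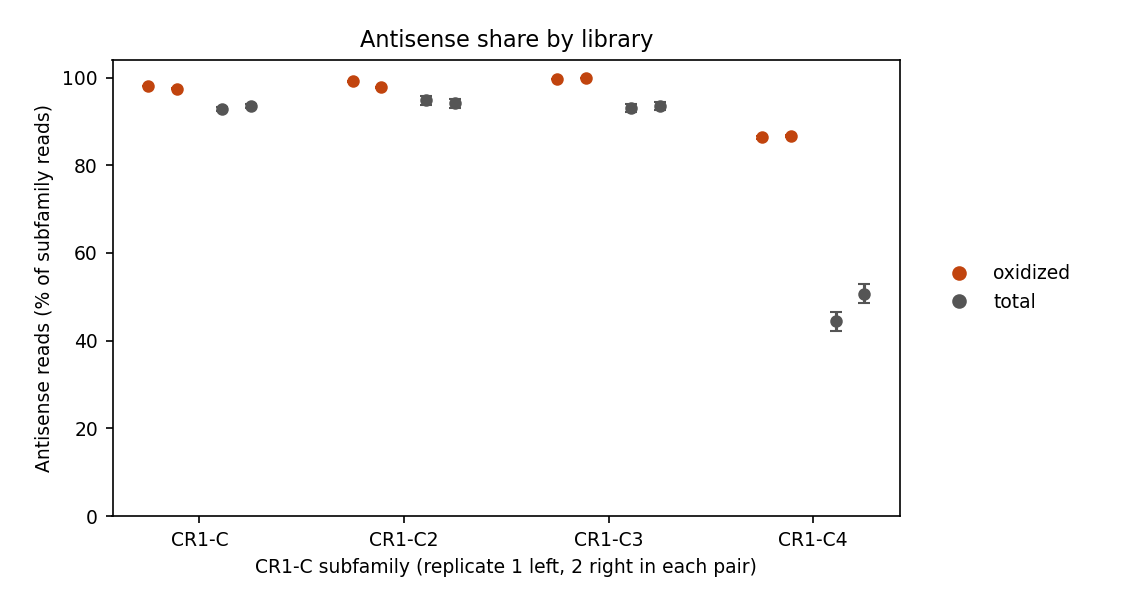
Share of antisense reads (% of a subfamily's reads) in each library, with oxidized libraries in orange left of total libraries in grey. Bars are exact 95% binomial intervals on reads, which understate counting error where reads are PCR copies. CR1-C4 stands at 86.4% and 86.7% after oxidation, against 44.4% and 50.7% in total libraries, while the other 3 rows lie between 92.8% and 99.8% in all 4 libraries.

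A change of antisense share was tested as the change of the antisense-to-sense ratio within libraries, on the log2 scale. The ratio rose by 4.76 for CR1-C3 (SE 0.36, edgeR adjusted p = 0.010), by 2.83 for CR1-C4 (SE 0.34, edgeR adjusted p = 0.012) and by 1.69 for CR1-C (SE 0.23, edgeR adjusted p = 0.012). CR1-C2 changed by 2.05 with a wider error and did not pass (SE 0.58, edgeR adjusted p = 0.064), but passed with the replicate number as a block (edgeR adjusted p = 5.8e-05). Of 111 TE rows tested for this ratio 23.4% (26) were called higher, beside 3 of the 4 CR1-C rows; the difference between these shares was not tested. By size of the estimate CR1-C3 ranked 18, CR1-C4 29, CR1-C2 40 and CR1-C 44 of the 111. These ranks leave out the SE, so they do not show how many TE rows changed more. CR1-C and CR1-C4 were no longer called without total replicate 1 (log2 change 1.61 and 2.64) or total replicate 2 (1.77 and 3.01). CR1-C2 moved to 1.34 without oxidized replicate 1 and to 2.76 without oxidized replicate 2. Each of those fits leaves out the spread between the oxidized libraries of CR1-C2, so no call is drawn from it.

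Between subfamilies, CR1-C4 had the lowest antisense share in all 4 libraries. It differed from CR1-C by -11.7 and -10.8 percentage points in the oxidized libraries and by -48.5 and -42.9 points in the total libraries. CR1-C3 lay above CR1-C by 1.60 and 2.31 points after oxidation but by only 0.293 and 0.0244 points in total libraries. Against CR1-C2, CR1-C3 was higher in both oxidized libraries and lower in both total libraries. An exact sign-flip permutation test over the 4 libraries gave p = 0.13, the smallest it can give, for 5 of the 6 pairs, and 1 for CR1-C3 against CR1-C2 (0.15 and 1 after Benjamini-Hochberg adjustment over the 6 pairs).

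Split by strand, the antisense reads of all 4 subfamilies rose relative to all assigned reads. Antisense CR1-C4 reads stood at 2872 and 2805 CPM in the oxidized libraries, compared with 49.9 and 68.5 CPM in the total ones, a log2 fold change of 5.58 (SE 0.28, edgeR adjusted p = 9.0e-06). The log2 fold change of antisense reads was 5.70 for CR1-C (SE 0.27), 5.84 for CR1-C2 (SE 0.25) and 6.96 for CR1-C3 (SE 0.33), each with an edgeR adjusted p of 8.8e-06. Scaled to non-miRNA reads these 4 antisense values were lower, between 3.78 for CR1-C4 and 5.16 for CR1-C3, and all still called. In that fit 57 TE rows were called higher in antisense reads, beside 66 in the main fit. The number tested on the non-miRNA scale was not counted, so these calls are not read as particular to the 4 rows. Of 85 TE rows tested on this strand in the main fit 77.6% were called higher. Relative to all TE reads, antisense CR1-C3 was still higher (log2 fold change 1.32, SE 0.18, edgeR adjusted p = 0.0020). On that scale 7.22% of 97 rows were so called. CR1-C (0.052, SE 0.11), CR1-C2 (0.19, SE 0.14) and CR1-C4 (-0.061, SE 0.18) did not pass, and the negative value of CR1-C4 was smaller in size than its SE. In antisense reads alone, a comparison chosen after the data were seen, CR1-C3 exceeded CR1-C by 1.29 (SE 0.18, edgeR adjusted p = 4.3e-04) and CR1-C2 by 1.15 (SE 0.16, edgeR adjusted p = 3.8e-04), both on the log2 scale. CR1-C4 was below CR1-C3 by a log2 difference of -1.37 (SE 0.16, edgeR adjusted p = 3.3e-04), and differed from CR1-C by -0.11 (SE 0.20, edgeR adjusted p = 0.71) and from CR1-C2 by -0.24 (SE 0.22, edgeR adjusted p = 0.43). Relative to antisense CR1-C and CR1-C2, 8.33% and 7.14% of TE rows were called higher, and relative to antisense CR1-C3 79.8% were called lower.

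Sense reads of all 4 subfamilies were also higher relative to all assigned reads, with lower fold changes than antisense reads. CR1-C sense reads stood at 647 and 718 CPM after oxidation, against 39.8 and 44.4 CPM in total libraries (log2 fold change 4.02, SE 0.20, edgeR adjusted p = 1.7e-04). Those of CR1-C4 stood at 453 and 431 CPM in the oxidized libraries, compared with 62.5 and 66.6 CPM in the total ones (log2 fold change 2.78, SE 0.17, edgeR adjusted p = 2.6e-04). In total libraries CR1-C4 ranked 5 of 241 TE rows by sense CPM, while it ranked 15 by all reads. CR1-C2 sense reads were few and uneven, at 62.3 and 144 CPM after oxidation, against 5.62 and 8.30 CPM in total libraries (log2 fold change 3.89, SE 0.60, edgeR adjusted p = 0.0038). The sense reads of CR1-C3 rose least, at 66.4 and 46.4 CPM in the oxidized libraries, compared with 10.1 and 13.98 CPM in the total ones (log2 fold change 2.23, SE 0.49, edgeR adjusted p = 0.011). Scaled to non-miRNA reads it did not pass (0.42, edgeR adjusted p = 0.41), and the direction turned with TMM factors estimated on sense TE rows (-1.17, edgeR adjusted p = 0.067). On that non-miRNA scale CR1-C (2.20), CR1-C2 (2.10) and CR1-C4 (0.95) were still called higher in sense reads. There 41 TE rows in all were called higher, beside 54 in the main fit. The number tested on the non-miRNA scale was not counted, so these calls are not read as particular to the 3 rows. Of 80 TE rows tested for sense reads in the main fit 67.5% were called higher.

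The sense values of CR1-C2 and CR1-C3 rest on little material: by the estimate of reads per molecule they correspond to 5.61 and 15.6 sense molecules of CR1-C2 and to 5.98 and 5.01 of CR1-C3 in oxidized replicates 1 and 2. Their sense calls were lost without total replicate 1 (edgeR adjusted p = 0.10 and 0.15) or total replicate 2 (0.091 and 0.13). The direction of all 4 sense changes turns when the TE table is the library size, from a log2 fold change of -1.64 for CR1-C to -3.42 for CR1-C3. That size sums both strands of TE reads, which were 96.3% and 95.5% antisense after oxidation, against 75.8% and 80.1% in total libraries. The scale thus carries the shift to antisense reads. Of sense TE reads alone the 4 rows held 6.87% and 6.49% after oxidation, against 5.61% and 6.60% in total libraries. With DESeq2 size factors estimated on sense TE rows the direction turns for CR1-C3 and CR1-C4. CR1-C2 was there at -0.015 (SE 0.59), smaller in size than its SE. With TMM factors, also estimated on sense TE rows, CR1-C4 sense reads were called lower (-0.64, edgeR adjusted p = 0.036). Sense reads of CR1-C were still called higher in that fit (0.61, edgeR adjusted p = 0.036). In pairs of sense reads alone, also chosen after the data were seen, CR1-C3 was below CR1-C, opposite to the antisense reads, by a log2 difference of -1.77 (SE 0.41, edgeR adjusted p = 0.027). CR1-C4 was below CR1-C as well (-1.24, SE 0.22, edgeR adjusted p = 0.012). The share of TE rows called lower relative to sense CR1-C was not counted, so these calls are not read as particular to CR1-C3 and CR1-C4. CR1-C3 against CR1-C2 (-1.33, SE 0.90, edgeR adjusted p = 0.23) and CR1-C4 against CR1-C3 (0.56, SE 0.39, edgeR adjusted p = 0.26) did not pass.

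**Figure D4:**
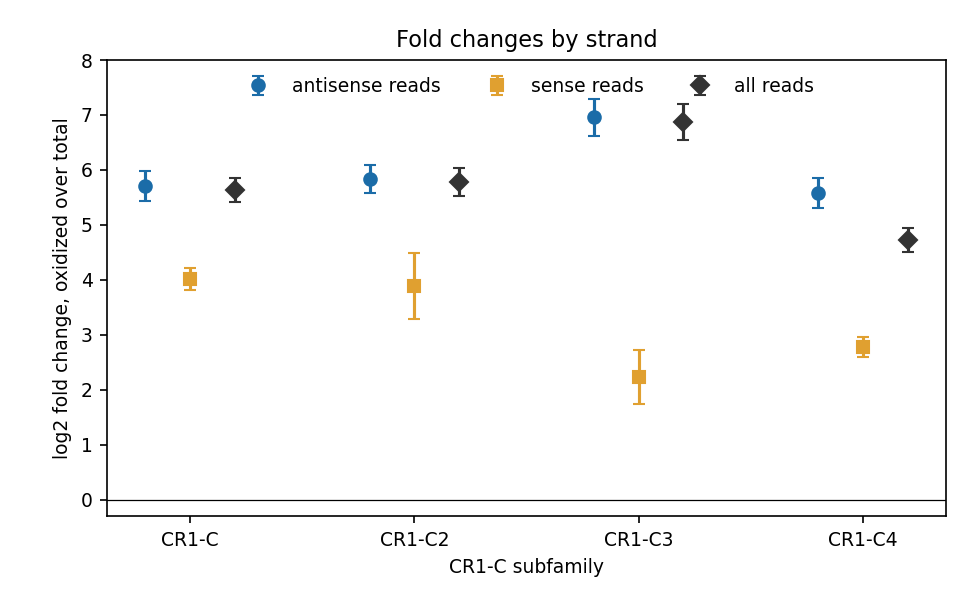
Log2 fold change (oxidized over total, share of assigned reads) of antisense, sense and all reads of each CR1-C subfamily, with standard errors as bars. Antisense values lie between 5.58 and 6.96 and sense values between 2.23 and 4.02. With the TE table as library size, which sums both strands and is mostly antisense, all 4 sense values fall below 0.

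The makeup of the summed CR1-C reads, which is free of the library size, was also compared. CR1-C3 made up 34.2% ± 4.98 of the 4 rows' reads after oxidation, beside 17.2% ± 1.74 in total libraries (SD, n = 2 each). CR1-C made up 49.5% ± 4.22 after oxidation and 59.2% ± 1.28 in total libraries, and CR1-C4 5.25% ± 0.0163 and 11.8% ± 0.524. CR1-C2 made up 11.02% ± 0.781 and 11.9% ± 0.0633 of them. In total libraries CR1-C4 supplied 52.9% and 49.97% of the sense reads but 6.18% and 6.51% of the antisense reads. After oxidation CR1-C4 supplied 36.9% and 32.2% of the sense reads, and CR1-C 52.7% and 53.6% of them, against 33.7% and 33.3% in total libraries. On no strand did a share overlap between oxidized and total libraries, except that of CR1-C2 in sense reads, and exact permutation tests gave 0.33, the smallest p possible, for all but that one (0.67). The shares on a strand add up to the whole, so a gain of any row is a loss of others and these are not separate results. The like was not computed for other TE rows.

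**Figure D5:**
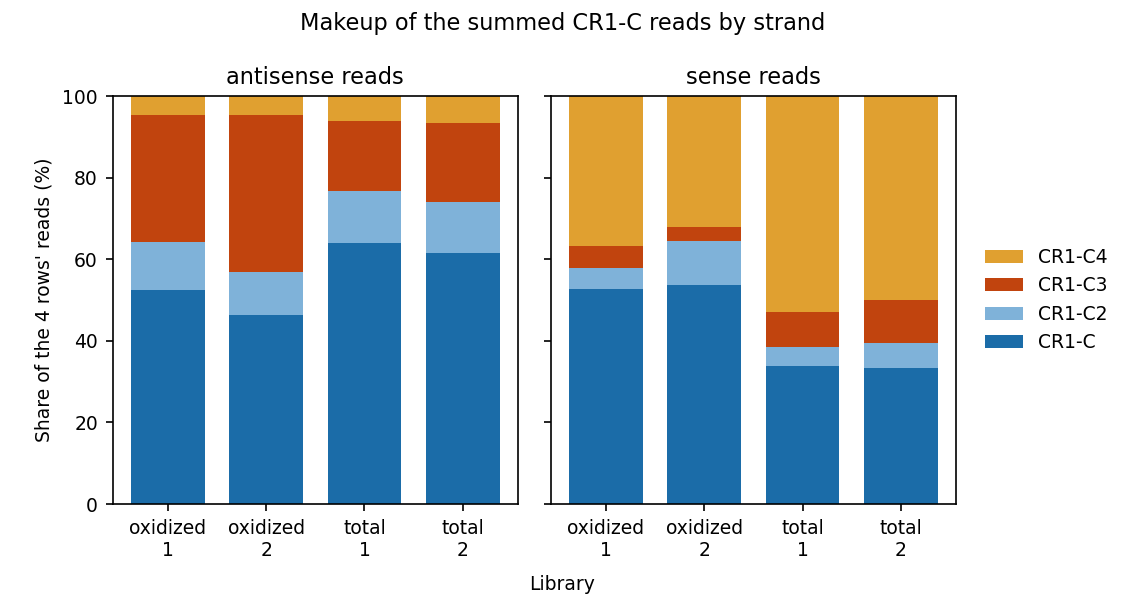
Share (%) of each CR1-C subfamily in the antisense reads (left) and sense reads (right) of the 4 rows, as stacked bars for the 2 oxidized and then the 2 total libraries. CR1-C3 fills 31.2% and 38.5% of antisense reads after oxidation, against 17.0% and 19.4% in total libraries, and CR1-C4 fills 36.9% and 32.2% of sense reads after oxidation, against 52.9% and 49.97% in total libraries.

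Most other chicken CR1 rows were higher after oxidation as well. Of 20 other chicken CR1 rows, all tested, 19 rose and 1 did not pass, with a median log2 fold change of 4.24. Among them the highest log2 fold change was that of CR1-F (6.70, SE 0.22, edgeR adjusted p = 0.0014), the next that of CR1-Y (5.95, SE 0.32, edgeR adjusted p = 0.0019), and the lowest that of CR1-X1 (-0.56, SE 1.07, edgeR adjusted p = 0.68). Of the remaining 14 CR1 rows, which carry other names such as those of crocodilian elements, 5 were tested, of which none rose and 1 fell in the edgeR fit. The summed antisense share was 98.1% and 97.8% for the 4 CR1-C rows in the oxidized libraries, beside 97.7% and 97.6% for the 20 other chicken rows. In the total libraries it was 87.2% and 88.8% for the CR1-C rows, beside 88.4% and 89.5% for the others.

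Profiles over the 4 libraries were compared by distance on the scale of log2(CPM + 0.5) with each row's mean removed, among the 99 TE rows with a mean of at least 20 reads. CR1-C lay nearest to CR1-C2 (distance 0.15), then CR1-D2 (0.19) and ENS1-LTR (0.21), the long terminal repeat of the early-embryo element ENS-1. CR1-C2 lay nearest to CR1-G (0.15), CR1-C (0.15) and GGERV20_I-int (0.21), an endogenous retrovirus row. CR1-C3 had no close neighbour among the other CR1-C rows, and lay nearest to GGLTR7B (0.28), an LTR row, CR1-F (0.39) and GGERVL-B-int (0.61). CR1-C4 lay nearest to CR1-Y3 (0.23), GGLTR3B3 (0.24) and CR1-F2 (0.29). Over the summed reads of the total libraries these 3 rows were 66.6%, 96.2% and 72.7% antisense. The edgeR log2 fold change of GGLTR3B3 was 5.57 (SE 0.54), against 4.73 for CR1-C4, so its distance understates that gap. Adding 0.5 to the CPM narrows such gaps in rows with few reads. CR1-C and CR1-C2 were thus near each other, whereas CR1-C3 and CR1-C4 were 2.17 apart. The distances rest on only 4 libraries in 2 groups.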

How the data were processed

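The authors deposited raw read counts per feature, 12 tables for each of 4 libraries (rRNA, tRNA, miRNA, TE families, remaining repeats and remaining genes, each unstranded and reverse-strand). featureCounts and the build galGal6 are named in the submitters' processing notes; the aligner, the annotation and the rule for multi-mapping reads are not given in the sources used here, so how reads of near-identical subfamilies were divided is unknown.

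One edgeR model (version 4.0.16, R 4.3.3) covered the unstranded counts of the 6 tables (glmQLFit, glmQLFTest; default expression filter, 1326 features; Benjamini-Hochberg threshold 0.05; library size the summed unstranded count; no TMM factor). TE antisense (reverse) and sense (unstranded minus reverse, at least 0) counts were fitted separately with the same library sizes. The antisense-to-sense ratio was fitted with a term per library, and pairs of subfamilies with the reads of one as library size. Standard errors are the log2 fold change over the square root of F. Folds are ratios of mean CPM. Exact permutation tests used scipy 1.17.1. The fits were run on simulated counts with known changes and the same dispersion for every feature. Those counts held no PCR copies, so the run does not show how the fits behave with them. In 4 TE rows, none a CR1-C row, some library had more reverse than unstranded reads. Replicates were not copies, as their chi-square over its degrees of freedom was 239 for oxidized and 95.8 for total libraries.

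The main edgeR fits took the libraries as unpaired. Only the folds per pair and the replicate block treated libraries with the same number as the 2 portions of a divided sample. The design text implies this division, although no label ties the numbers. Deviations of same-numbered libraries correlated by 0.047 over all tested features and 0.11 over tested TE rows. Reads per molecule were the median count of gene rows that had 20 reads or more in either oxidized library while the other had 0 (202 and 218 rows). Named rows are the 4 subfamilies, the 3 nearest profiles of each, and the 2 highest and the lowest of the other chicken CR1 rows. The members, lists and tests were chosen with earlier results of these data known.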

Additional observations from a re-analysis of the deposited data

How the results depend on the processing

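In the log2 fold changes of all reads, the 4 subfamilies kept their direction and call under each alternative except the TE table as library size, which shifted the median of all features by -5.55 (TMM factors by -0.17, DESeq2 by -0.15, miRNA left out by -1.74). There CR1-C was -0.017, CR1-C2 0.13 and CR1-C4 -0.92, and 2 TE rows were higher. With TMM factors estimated on the antisense TE rows alone, the values were 0.20 for CR1-C, 0.34 for CR1-C2 and 0.085 for CR1-C4 (13 TE rows higher); with TE reads as library size 0.052, 0.19 and -0.061 (7 rows); with DESeq2 CR1-C4 was 0.20 (21 rows). For sense reads, CR1-C, CR1-C2, CR1-C3 and CR1-C4 were -1.64, -1.73, -3.42 and -2.88 with the TE table, summed over both strands (2 rows higher). With DESeq2 they were 0.11, -0.015, -1.65 and -1.13 (17 rows). With TMM factors estimated on the sense TE rows alone, CR1-C2, CR1-C3 and CR1-C4 sense reads were 0.48, -1.17 and -0.64 (19 rows). With miRNA left out CR1-C3 was 0.42 and no longer called. The cause was not tested beyond the change of scale.

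The antisense-to-sense ratio of CR1-C2 passed with oxidized reads as molecules (1.90) and with the replicate block (2.05). In pairs, with the replicate block CR1-C3 against CR1-C was 1.25, CR1-C3 against CR1-C2 1.10 and CR1-C4 against CR1-C3 -2.15, none past the threshold; the exact permutation test, which cannot pass, had 1.25, 1.10 and -2.15. The block changed no other call of a subfamily. With at least 50 reads CR1-C3 against CR1-C2 (1.11) was lost. As molecules, CR1-C4 passed against CR1-C (-0.90) and CR1-C2 (-1.05). Chosen after the data were seen, exchanging the roles of a pair ended CR1-C3 against CR1-C (1.23) and CR1-C2 (1.09), and made CR1-C4 pass against CR1-C (-0.91) and CR1-C2 (-1.05). In sense reads alone CR1-C3 was at -1.77 against CR1-C and -1.33 against CR1-C2, CR1-C4 at -1.24 against CR1-C and 0.56 against CR1-C3. In reverse-strand reads the total makeup was 62.7% CR1-C, 12.8% CR1-C2 and 6.34% CR1-C4, and the oxidized share of CR1-C4 4.64%. Without miRNA in the library size the summed CPM of total libraries was 3760.

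Leaving out each library in turn, sense values ran from 3.16 to 4.38 for CR1-C2 and 1.95 to 2.48 for CR1-C3, ratio values from 1.502 to 1.88 for CR1-C, 1.34 to 2.76 for CR1-C2 and 2.64 to 3.01 for CR1-C4. Pair values ran from 1.006 to 1.48 for CR1-C3 against CR1-C, 0.88 to 1.32 against CR1-C2, -2.31 to -1.996 for CR1-C4 against CR1-C3, -0.996 to -0.82 against CR1-C and -1.13 to -0.98 against CR1-C2. TE rows called higher numbered 24 to 62 for sense reads and 4 to 46 for the ratio. The one library left in a group is given the other group's spread.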

Other observations

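The replicates of the 4 rows did not move together in the oxidized libraries. From the CPM values, CR1-C3 was higher in oxidized replicate 2 than in oxidized replicate 1 by 0.25 on the log2 scale, while CR1-C (-0.22), CR1-C2 (-0.19) and CR1-C4 (-0.039) were lower there. In the total libraries all 4 were higher in replicate 2, by 0.31 for CR1-C, 0.37 for CR1-C2, 0.56 for CR1-C3 and 0.26 for CR1-C4, and the median over 105 tested TE rows was 0.23. The absolute difference of CR1-C3 between total libraries was larger than that of 81.0% of tested TE rows.

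By the estimate of reads per molecule, CR1-C had about 3000 and 3090 molecules in oxidized replicates 1 and 2, CR1-C3 1751 and 2502, CR1-C2 661 and 695, and CR1-C4 299 and 349. These numbers were not measured and hold only as far as that estimate does.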
